A study of Mus musculus with 37 samples.

Results

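Bone morphogenetic protein (BMP) signalling genes of blood vessels were followed in lungs of irradiated mice. The set held 10 genes, chosen by symbol from the 24421 gene rows of the deposited table: the ligand Bmp6, the receptors Acvrl1, Bmpr2 and Eng, the inhibitory SMADs Smad6 and Smad7, and the target genes Id1, Id2, Id3 and Tmem100. They were proposed with the silicon against mock differences of these same libraries in view, so that comparison is described here without a test. Lung RNA of 37 C57BL/6 mice, 22 males and 15 females by label, was sequenced with 1 library per mouse. The 7 mock mice received 0 Gy and no supplement, and the 5 mock + NR mice received 0 Gy with nicotinamide riboside (NR; 12 mM), an NAD precursor related to vitamin B3, in their drinking water from before exposure. Radiation was given as 0.75 Gy to each irradiated mouse. The 7 silicon mice received 300 MeV/u silicon ions, and 6 further mice received the same ions with NR (silicon + NR). Another 7 mice received a mixed beam of 5 kinds of ion that simulates galactic cosmic radiation (GCR), and 5 received gamma rays from caesium-137. No source used here gives age or time after exposure, and each mouse has its own ear tag.

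BMP ligands bring together type 1 and type 2 serine/threonine kinase receptors, which phosphorylate SMAD1, SMAD5 and SMAD8. These join SMAD4, enter the nucleus and switch on target genes that include the Id genes and the pathway's own inhibitors. In lung endothelium the type 1 receptor ALK1 (Acvrl1), the type 2 receptor Bmpr2 and the co-receptor endoglin (Eng) carry this signal, and inherited loss of any of them is known from human vascular disease: pulmonary arterial hypertension for Bmpr2 and hereditary haemorrhagic telangiectasia for Acvrl1 and Eng.

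On the mouse build mm10 (GRCm38), Bmp6 lies on chromosome 13 from 38345107 to 38500302, Acvrl1 on chromosome 15 from 101128522 to 101145336, Bmpr2 on chromosome 1 from 59763400 to 59879014 and Eng on chromosome 2 from 32646595 to 32682669. Smad6 lies on chromosome 9 from 63953076 to 64022059, Id1 on chromosome 2 from 152736251 to 152737410 and Id2 on chromosome 12 from 25093799 to 25097140. Id3 lies on chromosome 4 from 136143497 to 136145755 and Tmem100 on chromosome 11 from 90030348 to 90036508. Smad6 and Id2 are on the minus strand and the others on the plus strand. Library preparation did not mark strand, so reads of overlapping genes on the opposite strand cannot be told apart. For Bmp6 these are Txndc5, over 224 bases, which reached 287 counts per 1000000 (CPM), and the antisense gene 4930579J19Rik, which reached 2.04 CPM. For Eng the gene is Fpgs, over 61 bases, which reached 17.6 CPM. For Acvrl1 it is the antisense gene Gm16031, over 1677 bases, whose level was not analysed here.

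RefSeq promoter sequence (GRCm38.p6) was matched for 6 of the 10 genes. The 250 bases before the RefSeq start are shown for 4 of them. They were chosen because the Id genes and Smad6 are textbook BMP targets. Eng is a receptor whose level moved with those of Id3 and Smad6 across the libraries. For Id3, Id2, Bmp6 and Bmpr2 the RefSeq start lies inside the gene bounds given above, which come from GENCODE. For Smad6 and Eng it lies at the edge of those bounds. Capitals mark the letters searched on both strands: GGCGCC and GGAGCC, bound by SMAD1 and SMAD5, and CAGAC, the core bound by SMAD4. They read GGCTCC or GTCTG where the match is on the other strand.
Id3, chr4:136143572-136143821, plus strand: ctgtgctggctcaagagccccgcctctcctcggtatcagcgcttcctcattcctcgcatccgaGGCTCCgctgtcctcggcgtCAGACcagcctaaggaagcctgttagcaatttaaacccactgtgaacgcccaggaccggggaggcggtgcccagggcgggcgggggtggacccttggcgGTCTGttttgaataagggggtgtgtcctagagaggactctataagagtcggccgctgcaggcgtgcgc
Id2, chr12:25096093-25096342, minus strand: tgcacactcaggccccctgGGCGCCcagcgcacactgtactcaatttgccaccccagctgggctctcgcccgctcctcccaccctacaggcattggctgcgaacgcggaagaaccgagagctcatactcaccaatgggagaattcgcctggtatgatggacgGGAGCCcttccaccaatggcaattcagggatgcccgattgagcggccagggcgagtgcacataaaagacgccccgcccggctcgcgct
Smad6, chr9:64022060-64022309, minus strand: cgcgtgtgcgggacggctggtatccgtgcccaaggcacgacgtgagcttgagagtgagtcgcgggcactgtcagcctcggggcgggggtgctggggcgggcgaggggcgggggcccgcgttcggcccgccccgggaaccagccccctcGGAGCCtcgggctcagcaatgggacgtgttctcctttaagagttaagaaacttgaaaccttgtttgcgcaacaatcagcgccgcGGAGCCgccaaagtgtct
Eng, chr2:32646345-32646594, plus strand: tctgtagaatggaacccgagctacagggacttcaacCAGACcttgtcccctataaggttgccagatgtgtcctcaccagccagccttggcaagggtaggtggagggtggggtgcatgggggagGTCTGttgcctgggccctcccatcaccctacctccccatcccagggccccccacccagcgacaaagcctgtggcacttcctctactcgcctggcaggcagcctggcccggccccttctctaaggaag

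Counted from the RefSeq start, the Id3 matches began at -187 (GGAGCC) and at -167 and -68 (CAGAC). The Id2 matches began at -231 (GGCGCC) and -88 (GGAGCC), those of Smad6 at -102 and -18 (GGAGCC), and those of Eng at -214 and -127 (CAGAC). The remaining matched promoters each held 1 match, GGCGCC at -105 in Bmpr2 and CAGAC at -119 in Bmp6. No matches overlapped. Such letters are common: of 32851 promoters of the same length, 9.59% held GGCGCC, 26% held GGAGCC and 42.2% held CAGAC. A match describes the letters and is not a measured site.

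Depth ran from 9485197 to 66381526 counts per library, with a median of about 28476000. All 10 genes passed the filter on low counts, and the lowest count of any of them was 14, for Bmp6 in GCR replicate 2. Several libraries stood apart. Skeletal muscle RNA (over 1000 CPM of the actin gene Acta1) was present in 13: 4 mock, 2 mock + NR, 5 silicon, 2 silicon + NR and none of the GCR or gamma libraries. Ribosomal precursor RNA (over 100000 CPM of Rn45s) was high in mock replicate 4 and GCR replicates 2, 5 and 6. Lymphoid tissue markers (over 100 CPM of Ccl19) were high in silicon replicates 3 and 6 and mock + NR replicate 4. Heart RNA (over 10000 CPM of Nppa) was high in gamma replicates 3 and 4. One library, gamma replicate 5, is labelled female and had 3.73 CPM of Xist against 200.1 CPM summed over 4 Y-linked genes. Sex was taken from the labels in each fit.

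Per kilobase of exon, the median level over the 37 libraries was highest for Id3 (94.0 CPM per kb), then Tmem100 (80.3), Id1 (56.7), Id2 (46.2), Acvrl1 (22), Smad6 (18.3), Eng (11.2), Bmpr2 (9.71), Smad7 (8.19) and Bmp6 (4.84). The targets thus stood above the receptors, and the ligand stood lowest. The highest library exceeded the lowest 130-fold for Bmp6 and 44.6-fold for Tmem100, and 5.13-fold for Id2. Mock replicates 1 and 7 were among the 5 highest libraries for 9 and 8 of the genes, and mock + NR replicate 2 was among the 5 lowest for all 10.

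**Figure D1:**
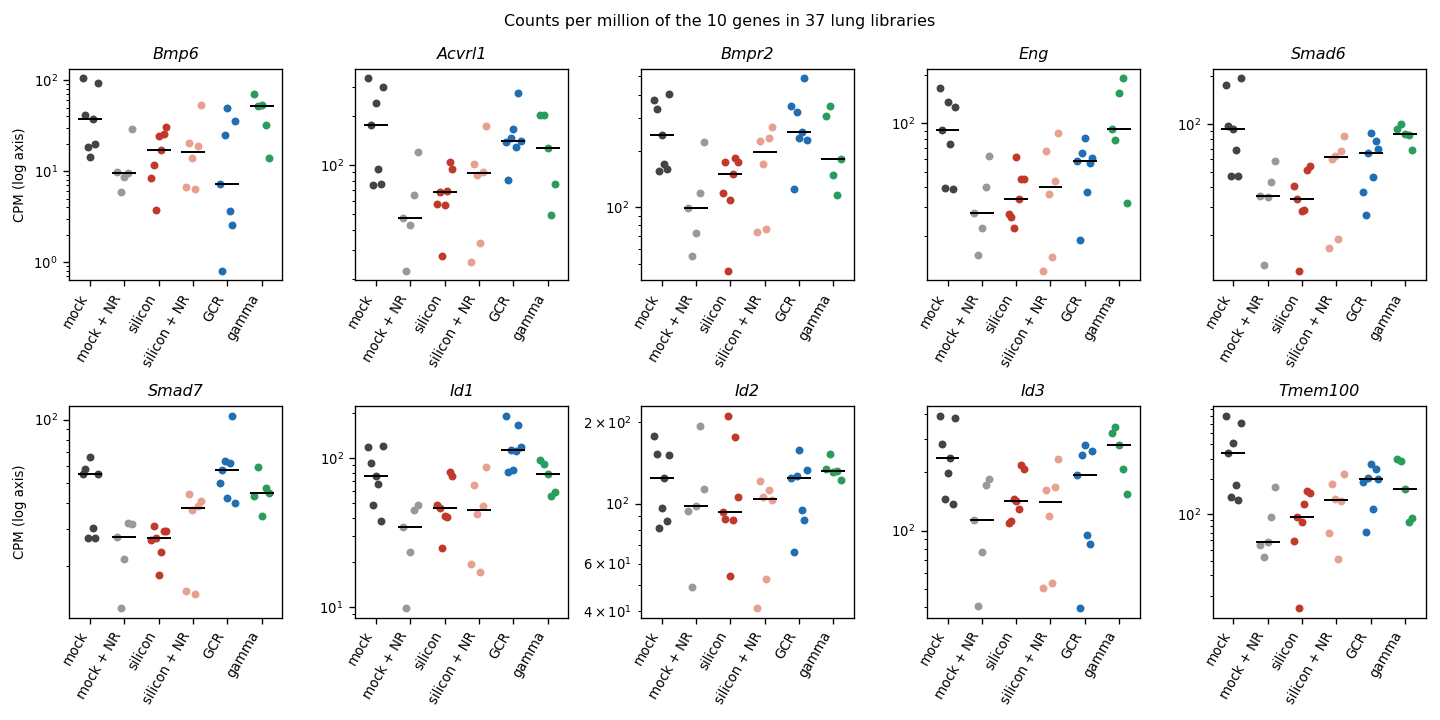
Level of each of the 10 genes in CPM (log axis) in 37 lung libraries, 1 point per mouse, grouped by treatment; the bar is the group median. Tmem100 spans 133 to 703 CPM in mock and 15.8 to 160 CPM in silicon, and Bmp6 spans 0.803 to 49.7 CPM in GCR.

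In silicon mice all 10 genes were lower than in mock mice, with log2 fold changes from -2.01 to -0.09 and a median of -1.28, where the median over all 16977 genes tested was 0.07 and 40.5% were lower. Since this comparison chose the genes, the values are a description. Tmem100, a transmembrane protein induced by ALK1 signalling, was at 133, 339 and 703 CPM (lowest, median, highest of 7) in mock and at 15.8, 94.2 and 160 CPM in silicon. The upper silicon libraries reached into the mock range, and the lower mock libraries were muscle-rich. Its log2 fold change was -2.01 (SE 0.44), 4.03-fold lower. Among the receptors, Acvrl1 was at 74.9, 175 and 339 CPM in mock and at 27.4, 68.3 and 104 CPM in silicon (-1.58, SE 0.40). Eng stood at -1.56 (SE 0.40) and Bmpr2 at -1.0 (SE 0.34). The inhibitory SMADs, which block receptor and SMAD activation, were at -1.64 (SE 0.33) for Smad6 and -0.80 (SE 0.27) for Smad7. The Id genes, which encode inhibitors of basic helix-loop-helix factors, lay nearest to 0, with Id3 at -0.80 (SE 0.33), Id1 at -0.69 (SE 0.33) and Id2 at -0.09 (SE 0.24). Bmp6 was at -1.76 (SE 0.58). For Id2, levels of 54.2, 93.0 and 211 CPM in silicon covered the whole mock range of 81.3 to 178 CPM.

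Endothelial markers moved with these values. All 24 genes of the endothelial list, which holds none of the 10, were lower in silicon than in mock (median -1.25), and their summed level ran from 698 to 2397 CPM in silicon against 1708 to 6441 CPM in mock. In bulk tissue, fewer endothelial cells and less RNA per cell cannot be told apart. With the mean log2 CPM of that list as a covariate, the median of the 10 was -0.29. Tmem100 was then at -0.77 (SE 0.27) and Smad6 at -0.69 (SE 0.23), and the other 8 lay between -0.48 and 0.30. Without the muscle-rich libraries, which leaves 2 silicon and 3 mock mice, the median was -2.22, with Tmem100 at -3.87 (SE 0.66). Among the muscle-rich libraries alone (5 silicon, 4 mock) all 10 were again lower, from -1.24 for Eng to -0.16 for Id2. Other cell types differed too. Alveolar type 1 genes were lower in silicon in 12 of 12 (median -0.81) and alveolar type 2 genes in 9 of 9 (median -0.66), while lymphoid genes were higher in 12 of 12 (median 2.18) and skeletal muscle genes in 15 of 15 (median 0.86). Without the lymphoid-rich libraries Tmem100 was at -1.83 and Id2 at -0.46. The part of muscle RNA and of these cell types in the differences was not tested further.

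**Figure D2:**
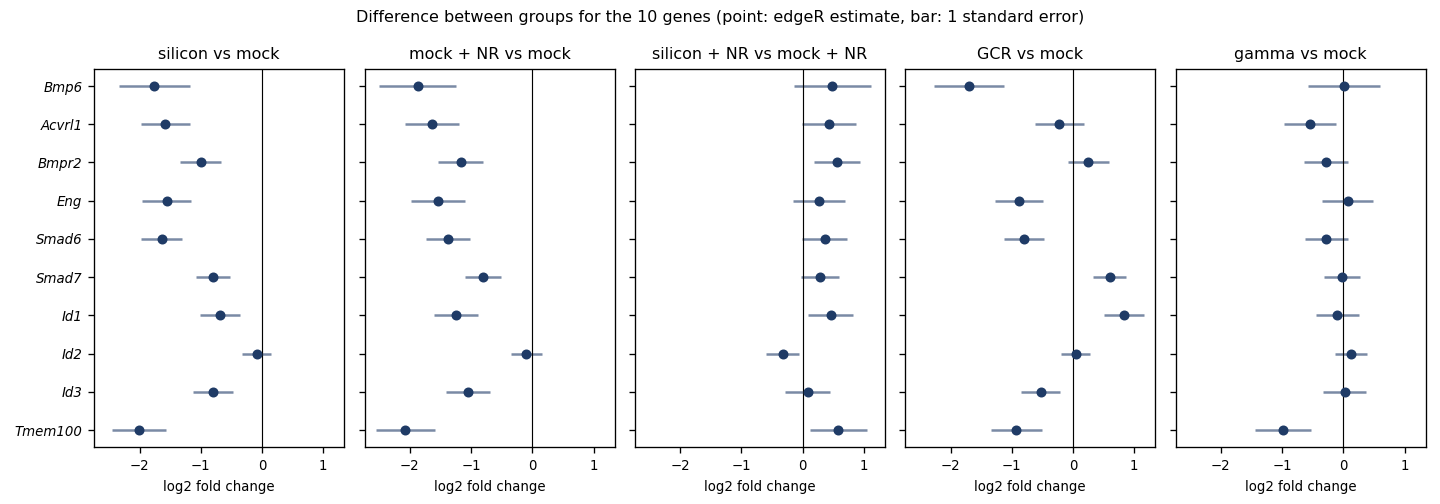
Log2 fold change of the 10 genes in 5 comparisons, from the edgeR fit over 37 libraries, with bars of 1 standard error; the first panel is a description. Points lie left of 0 in silicon against mock and in mock + NR against mock, and 9 of 10 lie right of 0 in silicon + NR against mock + NR.

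Mock-irradiated mice that drank NR had low levels of the same genes. Tmem100 was at 54.5, 43.3, 57.9, 94.5 and 172 CPM in the 5 mock + NR mice, below all mock libraries except in replicate 5, which lay in the lower part of the mock range of 133 to 703 CPM. Acvrl1 was at 47.3, 22.4, 42.5, 65.7 and 120 CPM, against 74.9 to 339 CPM in mock. Smad6 was at 35.5, 12.9, 34.5, 43.3 and 58.6 CPM, against 46.9 to 194 CPM. In each of these genes 1 mock + NR library, replicate 5, overlapped the mock range. Id2 did not share the pattern, at 93.8, 49.1, 97.9, 193 and 114 CPM.

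All 10 estimates for mock + NR against mock were below 0 (median -1.31, all genes -0.01), and none passed an adjusted p of 0.05 in edgeR, where 0% of all genes passed. At an unadjusted p under 0.05, 9 of the 10 were lower, against 7.71% of all genes that were lower at that p. Tmem100 was at -2.07 (SE 0.48, edgeR adjusted p 0.102), Bmp6 at -1.87 (SE 0.63), Acvrl1 at -1.64 (SE 0.44) and Eng at -1.54 (SE 0.43). Smad6 was at -1.38 (SE 0.36), Id1 at -1.24 (SE 0.36), Bmpr2 at -1.17 (SE 0.37), Id3 at -1.05 (SE 0.36) and Smad7 at -0.80 (SE 0.30). Their edgeR adjusted p lay between 0.102 and 0.154. Id2 was at -0.10 (SE 0.26). DESeq2 called 7 of the 10 (3.48% of all genes) and limma voom 6 (5.85%). Without the muscle-rich libraries, which leaves 3 mice in each group, edgeR called 6 of the 10 (2.48% of all genes): Tmem100, Acvrl1, Bmpr2, Eng, Smad6 and Id1. Without these and the high-Rn45s libraries it called 9 (5.1%). That fit keeps the same 3 mice in each group and further omits only GCR replicates 2, 5 and 6. The mice compared did not change between these 2 fits. The 7 mock mice also entered silicon against mock, in which the genes were chosen, so lower values against them are partly fixed by that choice. All 24 endothelial genes were lower as well (median -1.32), and the covariate for them brought Tmem100 to -0.55 and the other 9 to between -0.37 and 0.29. Alveolar type 1 markers were lower in 12 of 12 (median -1.15) and fibroblast markers in 10 of 10 (median -0.63), and lymphoid markers were higher in 12 of 12 (median 0.99).

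Radiation given to NR-drinking mice was compared with mice that shared no library with the choice of genes. Silicon + NR against mock + NR gave 9 of 10 genes above 0, with a median of 0.39 (all genes -0.01). None was called by edgeR (0% of all genes), and none had an unadjusted edgeR p under 0.05, which 2.16% of all genes had. Nor was any called by DESeq2 or limma voom, whose share of all genes is not given here. Tmem100 was at 41.3, 133 and 222 CPM in the 6 silicon + NR mice, so the groups overlapped over most of their range. Its log2 fold change was 0.58 (SE 0.47, 95% interval -0.33 to 1.49). Bmpr2 was at 0.56 (SE 0.37), Bmp6 at 0.49 (SE 0.62), Id1 at 0.46 (SE 0.37), Acvrl1 at 0.43 (SE 0.44) and Smad6 at 0.36 (SE 0.36). Smad7 was at 0.28 (SE 0.31), Eng at 0.27 (SE 0.43), Id3 at 0.08 (SE 0.36) and Id2 at -0.33 (SE 0.27). Endothelial genes were higher in 22 of 24 (median 0.34), alveolar type 1 genes in 12 of 12 (median 0.36), squamous epithelium genes in 10 of 10 (median 1.45) and skeletal muscle genes in 15 of 15 (median 0.54). Lymphoid genes were lower in 12 of 12 (median -2.29), 11 of them at an unadjusted edgeR p under 0.05. Without the lymphoid-rich libraries Tmem100 was at 0.64 and Id2 at -0.09.

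Against silicon alone, silicon + NR gave estimates from -0.34 to 0.62, with 0 of 10 called by edgeR (0% of all genes) and 0 at an unadjusted p under 0.05 (12.8%). DESeq2 called 0 and limma voom 1, against 24.8% of all genes in limma voom and a share not given here in DESeq2. The silicon mice also entered the comparison that chose the genes, so higher values against them are partly fixed by that choice. Lymphoid genes were lower in silicon + NR in 12 of 12 (median -3.29); their part was not tested. Smad6 was highest, at 11.9, 33.5 and 54.8 CPM in silicon and 16.7, 61.9 and 84.6 CPM in silicon + NR (0.62, SE 0.33, edgeR adjusted p 0.436). The silicon + NR group split by muscle RNA: replicates 1 and 4, the muscle-rich ones, were at 16.7 and 19 CPM and the other 4 between 60.6 and 84.6 CPM. The difference between the silicon effects without and with NR contains the comparison that chose the genes and is given as a description. It was 2.59 (SE 0.64) for Tmem100, 2.24 (SE 0.84) for Bmp6, 2.0 (SE 0.59) for Acvrl1, 2.0 (SE 0.49) for Smad6, 1.82 (SE 0.58) for Eng and 1.57 (SE 0.50) for Bmpr2. It was 1.14 for Id1, 1.08 for Smad7, 0.88 for Id3 and -0.24 for Id2.

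In GCR-exposed lungs Bmp6 fell, and Tmem100, the receptor Eng, Smad6 and Id3 had estimates below the mock level that did not pass. The receptors Acvrl1 and Bmpr2, and Id2, lay near that level. Id1 and Smad7 had estimates above it that did not pass. Bmp6 was at 0.803, 7.26 and 49.7 CPM (lowest, median, highest of 7) in GCR and at 14.4, 37.4 and 104 CPM in mock. Of the GCR libraries 4 lay below all mock libraries and the other 3 within their range, and the 3 lowest were the libraries with high Rn45s. The log2 fold change was -1.70 (SE 0.57), 3.25-fold lower (edgeR adjusted p 0.0394). It was the 1 gene of the 10 called, where 16.6% of all genes were called and 8.52% were called lower, so the count of calls does not set the 10 apart from other genes. The 7 mock mice also entered silicon against mock, in which the genes were chosen. Lower values of the 10 genes against these mice are thus partly fixed by that choice.

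The call for Bmp6 depended on libraries. Without the 4 libraries high in Rn45s it was -1.15 (SE 0.55, edgeR adjusted p 0.303) and without the muscle-rich ones -2.21 (SE 0.70, edgeR adjusted p 0.160). Each of these fits called 0% of all genes, so the lost call is not particular to Bmp6. Over the 14 alternative fits its edgeR, DESeq2 or limma adjusted p ran from 0.0137 to 1, with 6 calls and an estimate below 0 in each. It was not called without GCR replicate 1, 2, 5 or 6 or without mock replicate 1, 5 or 7, fits whose share of all genes is not given here. The edgeR adjusted p over all single omissions of a GCR or mock library ran from 0.0189 to 0.104.

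Id1 stood at 81.2, 114 and 193 CPM in GCR and at 38.2, 75.5 and 122 CPM in mock. The lowest GCR library was above the mock median, and the groups overlapped. Its log2 fold change was 0.83 (SE 0.33, edgeR adjusted p 0.0705), which did not pass, and DESeq2, which called 22.6% of all genes, gave 0.85 (adjusted p 0.0425). Smad7, on chromosome 18 from 75367529 to 75395935, was at 40.0, 57.3 and 104 CPM in GCR and 27.3, 54.8 and 66.1 CPM in mock, with 1 GCR library, replicate 6, above all mock libraries. Its estimate was 0.60 (SE 0.28, edgeR adjusted p 0.119). Bmpr2 was at 0.25 (SE 0.33), Id2 at 0.04 (SE 0.24), Acvrl1 at -0.22 (SE 0.39) and Id3 at -0.53 (SE 0.32). Tmem100 was at -0.93 (SE 0.42), Eng at -0.88 (SE 0.39) and Smad6 at -0.81 (SE 0.33), with edgeR adjusted p from 0.0789 to 0.114.

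Endothelial markers were lower in 18 of 24 in GCR (median -0.37), and their summed level ran from 1284 to 3587 CPM. With their mean as a covariate, edgeR called 4 of the 10 genes, where 22.5% of all genes were called: Id1 at 1.29 (SE 0.23, adjusted p 0.00364), Smad7 at 0.82 (SE 0.27, adjusted p 0.0302), Bmpr2 at 0.67 (SE 0.22, adjusted p 0.0308) and Bmp6 at -1.15 (SE 0.39, adjusted p 0.0348). Without the high-Rn45s libraries and with the covariate, a setting added after the values were seen, none was called, where 0% of all genes were called. Id1 was then at 1.03 (SE 0.25, edgeR adjusted p 0.118), Bmpr2 at 0.39 and Smad7 at 0.42. Tmem100 was at -0.24 (SE 0.24) with the covariate over all libraries. Other tissue also differed between these groups. All 15 skeletal muscle genes listed were lower in GCR than in mock (median -7.79), as were all 10 squamous epithelium genes (median -6.87). Muscle RNA was high in 4 mock libraries and no GCR library. The part of Rn45s, muscle and squamous RNA in these values was not tested beyond these omissions.

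**Figure D3:**
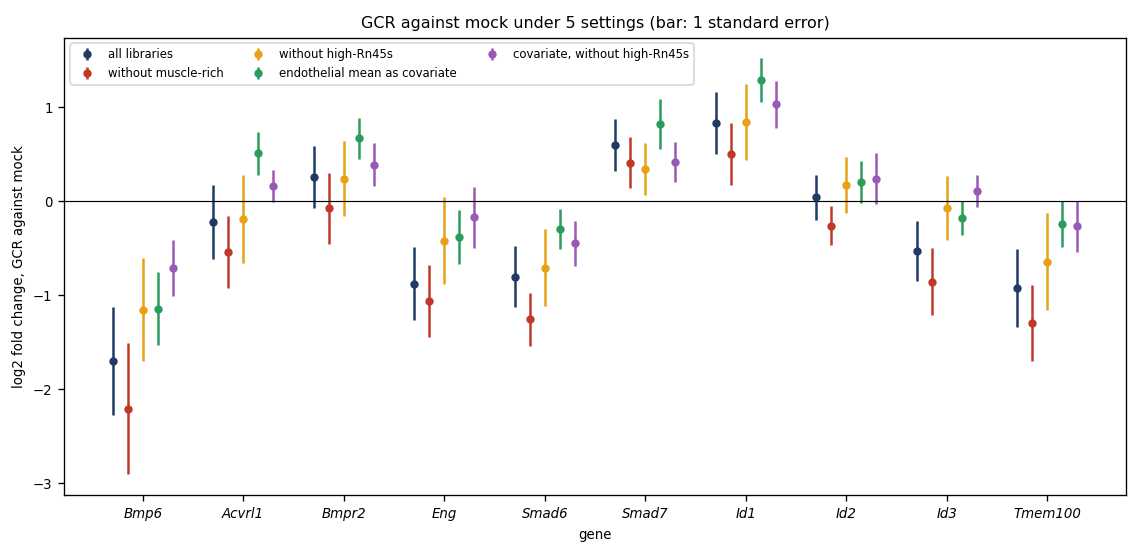
Log2 fold change of GCR against mock for each of the 10 genes under 5 settings, with bars of 1 standard error: all libraries, without muscle-rich, without high-Rn45s, with the endothelial mean as covariate, and with that covariate but without high-Rn45s libraries. Bmp6 lies below 0 and Id1 above 0 in all 5, between -2.21 and -0.71 and between 0.50 and 1.29, while Acvrl1, Bmpr2, Id2 and Id3 change sign.

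GCR against gamma compared 2 kinds of radiation at 0.75 Gy with no mock mouse in either group. Gamma libraries had Bmp6 at 71.0, 52.4, 53.4, 32.1 and 13.9 CPM, and 4 of the 7 GCR libraries lay below the lowest of these. The log2 fold change was -1.71 (SE 0.61, edgeR adjusted p 0.0760). Id1 was at 96.7, 91.6, 78.3, 55.7 and 59.1 CPM in gamma, and 5 GCR libraries lay above the highest of these (0.93, SE 0.36, edgeR adjusted p 0.0987). Eng was at -0.95 (SE 0.41), Smad7 at 0.62 (SE 0.30), Bmpr2 at 0.53 (SE 0.36) and Acvrl1 at 0.33 (SE 0.43). None of the 10 passed in edgeR (5.7% of all genes), 4 had an unadjusted p under 0.05 (25.7%), DESeq2 called 1 (12.1%) and limma voom 0. The share of all genes for limma voom is given with the dependence on processing. With the endothelial covariate edgeR called 4 (9.68%): Id1, Bmp6, Acvrl1 and Bmpr2. Heart genes were lower in GCR in 10 of 10 (median -3.10). Without the heart-rich gamma libraries Eng was at -0.26 (SE 0.47), Acvrl1 at 0.0016, Bmpr2 at 0.17, Bmp6 at -1.84 and Id1 at 0.82. Rn45s was above 100000 CPM in 3 GCR libraries and in no gamma library. Without the high-Rn45s libraries Bmp6 was at -1.04 (SE 0.57), Id1 at 0.89 (SE 0.42) and Smad7 at 0.15 (SE 0.29); the part of Rn45s was not tested further.

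Gamma rays gave estimates against mock between -0.55 (Acvrl1, SE 0.42) and 0.13 (Id2) for 9 of the 10 genes. Tmem100 had the lowest estimate (-0.98, SE 0.46, edgeR adjusted p 0.463). It was at 298, 286, 167, 85.8 and 93.3 CPM in gamma, of which 2 libraries lay below the mock range. Endothelial genes were lower in gamma in 19 of 24 (median -0.33). Skeletal muscle genes were lower in 15 of 15 (median -8.05) and squamous epithelium genes in 10 of 10 (median -5.79). Heart genes were higher in 10 of 10 (median 1.82). The part of these tissues was not tested. Eng was at 92.0, 78.3, 154, 190 and 31.9 CPM (0.07, SE 0.41). Its 2 highest gamma values were those of the heart-rich replicates 3 and 4, and without them it was at -0.59 (SE 0.48). None of the 10 was called by edgeR (0.0295% of all genes), and 1, Tmem100, had an unadjusted edgeR p under 0.05 (10% of all genes). DESeq2 and limma voom called none either, with shares of all genes not given here. The mock mice are those in which the genes were chosen, so lower values against them are partly fixed here too. Between females and males, edgeR called none of the 10 (0.0589% of all genes), with estimates from -0.08 to 0.85, and 1, Bmp6 (0.85, SE 0.37), had an unadjusted p under 0.05 (3.15%). Gamma replicate 5, with Y-linked RNA, counted as female by its label here, and no fit with that label changed was run. Leaving out single libraries, that one among them, gave 0 calls. DESeq2 and limma voom called none of the 10 between the sexes, with shares of all genes not given here.

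In none of the pairs of groups compared above did the CPM of any of the 10 genes separate without overlap. Pairs not compared above were not counted, and some did separate. Smad6, for example, ran from 68.9 to 99.6 CPM in gamma and from 11.9 to 54.8 CPM in silicon, and the share of all genes there is not given. GCR and mock did not overlap in 0.654% of all genes and mock + NR and mock in 0.825%.

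Most of the 10 genes varied together across the 37 libraries. Over 45 pairs, Pearson's r of log2 CPM had a median of 0.71 and ran from 0.12 to 0.94, given as a description. The genes were proposed for their lower values in silicon, and the silicon and mock libraries are among the 37, so positive r is partly fixed by the choice and no p is given. The values also share their libraries, depth and tissue make-up. Acvrl1 and Bmpr2 had r = 0.94 (rho = 0.94). It was 0.93 without the 2 libraries farthest from the median, 0.91 after group and sex means were removed, 0.96 in the 13 muscle-rich libraries and 0.94 in the other 24. Acvrl1 and Tmem100 had r = 0.93 (rho = 0.95).

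Bmp6 and Smad7 had the lowest r of all pairs, 0.12 (rho = 0.25). The r was 0.0020 in the 24 libraries that were not muscle-rich, 0.086 after group and sex means were removed and -0.58 among the 7 GCR libraries. It was 0.55 in the 13 muscle-rich libraries and 0.45 without the 2 farthest libraries. Bmp6 and Id1 had r = 0.33 (rho = 0.45), and 0.58 without the 2 farthest. Bmp6 and Id3 had r = 0.86 (rho = 0.90), with 0.93 in the muscle-rich and 0.92 in the other libraries. The Id genes differed among themselves: Id2 and Id3 had r = 0.78 (rho = 0.81), while Id1 and Id2 had r = 0.53 (rho = 0.49), which was 0.59 after group and sex means were removed. That pair was at 0.84 in the muscle-rich libraries and -0.03 in the others, so it did not hold in both.

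**Figure D4:**
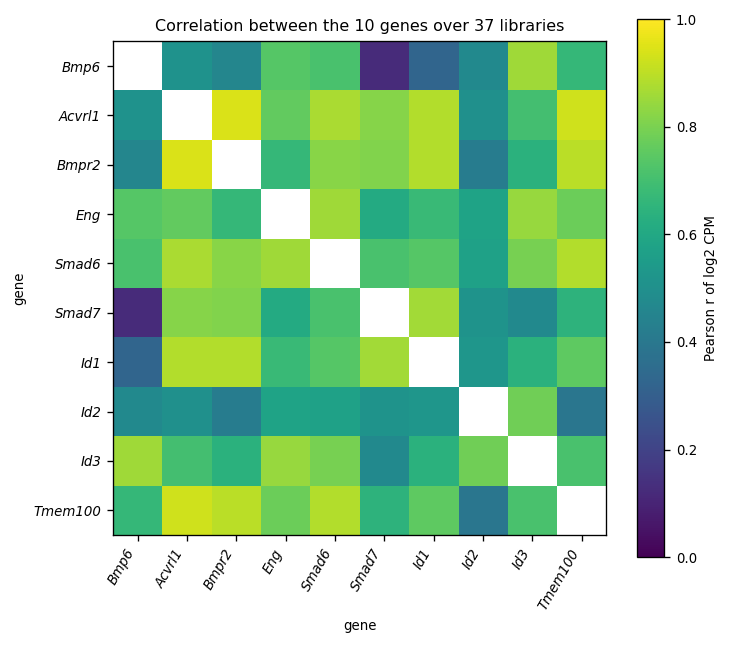
Pearson's r of log2 CPM between each pair of the 10 genes over 37 libraries, coloured from 0 to 1. Acvrl1, Bmpr2, Tmem100 and Smad6 form the brightest block, with 0.94 for Acvrl1 and Bmpr2, and the darkest cell is Bmp6 with Smad7 at 0.12.

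As a description, r with the mean log2 CPM of the 24 endothelial genes was 0.94 for Acvrl1, 0.93 for Tmem100, 0.91 for Smad6 and Bmpr2, 0.88 for Eng, 0.86 for Id3, 0.84 for Id1, 0.72 for Smad7, 0.71 for Bmp6 and 0.58 for Id2. Relative to that mean, on a log2 scale, Id1 was at -0.43 ± 0.21 (SD, n = 7) in mock and 0.62 ± 0.61 (SD, n = 7) in GCR. Bmp6 was at -1.47 ± 0.72 (SD, n = 7) and -3.22 ± 1.72 (SD, n = 7). The genes whose log2 CPM followed each one most closely over the 37 libraries were, for the receptors, Itga1 (r = 0.97 with Acvrl1), Efnb2 (0.98 with Bmpr2) and Stab1 (0.94 with Eng). For the other genes they were Cav2 (0.95 with Bmp6), Sdpr (0.94 with Smad6), Smurf2 (0.94 with Smad7), Cd93 (0.93 with Id1), Slc50a1 (0.93 with Id2), Icam2 (0.94 with Id3) and Calcrl (0.96 with Tmem100).

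**Figure D5:**
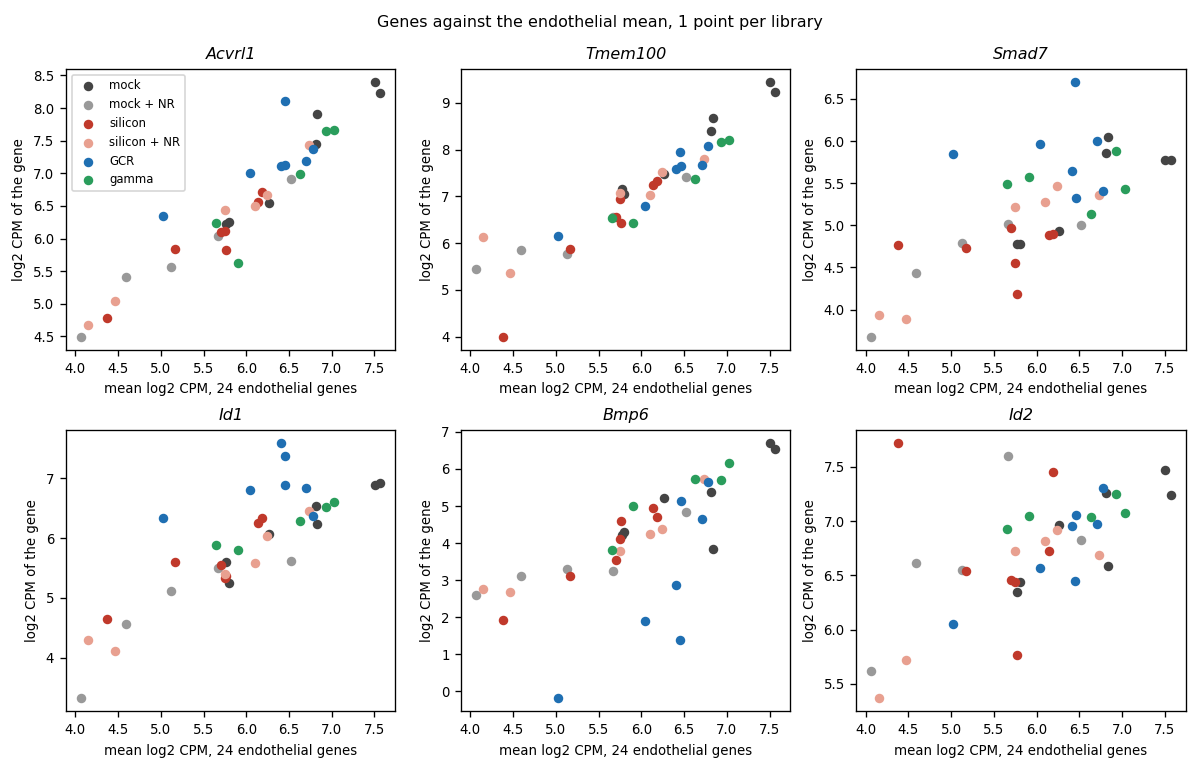
Log2 CPM of 6 of the genes against the mean log2 CPM of 24 endothelial genes, 1 point per library, coloured by group. Acvrl1 and Tmem100 follow the mean with r of 0.94 and 0.93. Relative to the mean, Bmp6 lies below all mock libraries in GCR replicates 1, 2, 5 and 6 and within the mock range in replicates 3, 4 and 7. Id1 lies above all mock libraries in each GCR library except replicate 4.

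Other genes of the pathway came from a list of 59, of which 55 were tested: ligands, receptors, SMADs and their regulators, secreted antagonists and targets. In GCR against mock, 3 rose and 3 fell in edgeR, where 16.6% of all genes passed. Hes1, a target shared with Notch signalling, rose from 139 ± 30.7 CPM (SD, n = 7) to 326 ± 148 CPM (SD, n = 7), with a log2 fold change of 1.53 (SE 0.33, edgeR adjusted p 0.00709). Smad5, a signal-carrying SMAD, rose from 66 ± 8.78 to 88.8 ± 23.2 CPM (0.64, SE 0.16, edgeR adjusted p 0.0117). Skil, a SMAD co-repressor, rose by 0.67 (SE 0.18, edgeR adjusted p 0.0171). The immunophilin Fkbp1a, which binds type 1 receptors, fell by 0.71 (SE 0.18, edgeR adjusted p 0.0129). The antagonist follistatin (Fst) fell from 8.75 ± 3.07 to 2.33 ± 1.63 CPM (-1.95, SE 0.63, edgeR adjusted p 0.0339). Chrdl2, another antagonist, fell from 1.09 ± 0.745 to 0.0937 ± 0.0670 CPM (-3.36, SE 0.85, edgeR adjusted p 0.0134). Its GCR level amounts to only a few counts per library, so the size of this fall is uncertain.

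Of the other ligands and receptors, 0 of 10 and 0 of 9 passed in edgeR in that comparison, and 3 and 2 were lower at an unadjusted p under 0.05, as were 19% of all genes. Without the muscle-rich libraries 0 of 57 pathway genes passed, and without the high-Rn45s libraries 0 of 56, in fits that called 0% of all genes. Hes1 was then at 1.43 and 0.85, Smad5 at 0.55 and 0.22, Fst at -1.35 and -1.68, and Chrdl2 at -2.10 and -3.41. The count was 16 without GCR replicate 4, where 24.1% of all genes passed, and 10 without GCR replicate 7, where 19.9% passed. It was 2 without GCR replicate 2, for which the share of all genes is not given here.

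Against gamma, GCR gave 3 pathway genes that rose and 4 that fell (5.7% of all genes). Hes1 rose by 1.38 (SE 0.36), Ski by 0.72 (SE 0.20) and Skil by 0.66 (SE 0.20). The antagonist Chrdl1 fell by 1.17 (SE 0.31), the secreted protease Htra1 by 1.46 (SE 0.34), the transcription factor Atoh8 by 0.90 (SE 0.27) and the heart factor Tbx20 by 3.08 (SE 0.92). Their edgeR adjusted p lay between 0.0313 and 0.0476. Without the heart-rich gamma libraries none passed and Tbx20 was at -0.08. The count was also 0 without GCR replicate 1, 2, 5 or 6 or gamma replicate 3 or 4, and it was 4 without gamma replicate 1. For these omissions the share of all genes is not given here. It was 11 without GCR replicate 4, where 15.4% of all genes passed, and 13 without gamma replicate 5, where 12.6% passed. In mock + NR against mock, edgeR called none of the 55. At an unadjusted p under 0.05, 15 were lower and 1 higher, against 7.71% and 9.22% of all genes. In gamma against mock edgeR also called none, and 3 were lower and 6 higher at that p, against 5.17% and 4.85% of all genes.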

How the data were processed

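RNA of lung tissue was extracted with Trizol and made into libraries with the SMART-seq v4 and Nextera XT kits, per the labels' protocols. The submitters' processing notes name HTSeq 0.13.5, STAR 2.5.2, Trimmomatic 0.36, MultiQC 1.12 and FastQC 0.11.4, and the build mm10. Roles, settings and gene annotation were not given in the sources used here. Integer read counts for each gene symbol, without normalization, are what the authors deposited. No molecular identifiers were used, so counts are not independent molecules.

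Groups came from the labels, and replicate numbers follow accession order and only name a mouse. Every pair of libraries within a group differed by more than counting noise (chi-square per degree of freedom 19.2 to 1003). CPM, counts per 1000000, were computed from library totals. The p-values measure the spread between mice.

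edgeR 4.0.16 (R 4.3.3, quasi-likelihood test, TMM, filterByExpr) was fitted to 16977 genes over all 37 libraries with group and sex as terms. Adjusted p is by Benjamini-Hochberg over all genes tested, called under 0.05. DESeq2 1.42.0, limma 3.58.1 (voom with quality weights), other size factors, filters, terms and sample sets were alternatives. Standard errors come from the fold change and its test statistic, and 95% intervals use the normal distribution. Log2 CPM used a prior count of 2. The fits were tested on simulated counts. Correlations were computed with SciPy 1.17.1 and are given without a p. Gene coordinates are from GENCODE M21, and promoter windows are from RefSeq.

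The genes, lists and tests were chosen with earlier results of these data known. Named besides the 10 genes are listed pathway genes that passed, the gene closest in log2 CPM to each of the 10, and Acta1, Rn45s, Ccl19 and Nppa. Tbx20 and other pathway genes were named because they passed. The endothelial list had 24 genes.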

Additional observations from a re-analysis of the deposited data

Results flagged for a closer look

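Of 60 sets of values (10 genes in 6 groups), 3 held a library whose gap to its nearest neighbour was large against the range of its group, and chance alone marks about 1 set in 20. Bmp6 was at 28.7 CPM in mock + NR replicate 5, where the other 4 mice lay between 5.96 and 9.69 CPM. Bmp6 was at 53.4 CPM in silicon + NR replicate 6, above the other 5 at 6.36 to 20.6 CPM. Smad7 was at 104 CPM in GCR replicate 6, a library with high Rn45s and the lowest depth, above the other 6 at 40.0 to 63.7 CPM.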

How the results depend on the processing

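The median log2 fold change of the 10 genes in silicon against mock (-1.28) was -2.22 without the muscle-rich libraries, -2.19 without these and the high-Rn45s libraries, -0.29 with the endothelial covariate, and -1.45 to -1.12 when single libraries were left out. In GCR against mock, 1 of the 10 was called (16.6% of all genes), but 2 in DESeq2 (22.6%) and 4 with the endothelial covariate (22.5%). The count was 0 in limma voom, without the sex term, with only the groups compared and without both the muscle-rich and high-Rn45s sets. It was also 0 without the muscle-rich or without the high-Rn45s set, fits that each called 0% of all genes. With the covariate it was 0 without either set, in 2 fits added after the data were seen. The fit with the covariate and without the high-Rn45s set called 0% of all genes. For the other fits with 0 the share is left out of this paragraph. In mock + NR against mock, edgeR called 0 but 6 without the muscle-rich (2.48% of all genes) and 9 without the muscle-rich and high-Rn45s libraries (5.1%), DESeq2 7 (3.48%) and limma voom 6 (5.85%). The NR difference contains the comparison that chose the genes, so its counts are a description and support nothing: 0, but 3 in DESeq2 (1.93% of all genes), 7 without the muscle-rich libraries (7.79%) and 9 without both sets (9.92%). After the muscle-rich libraries, the high-Rn45s set takes out only GCR replicates 2, 5 and 6. The mock, silicon and NR mice were thus the same with and without that further omission. Silicon + NR against silicon had 0, and 1 in limma voom (24.8%). GCR against gamma had 0, but 1 in DESeq2 (12.1%) and 4 with the covariate (9.68%). With single libraries left out, the count was 0 to 2 in GCR against mock (2 without GCR replicate 4 or mock replicate 4, where 24.1% and 19.1% of all genes were called), 0 to 2 in GCR against gamma (2 without GCR replicate 4 or gamma replicate 5, with 15.4% and 12.6%), 0 to 5 in mock + NR against mock (5 without mock replicate 6, with 1.56%), 0 to 2 in the NR difference (2 without silicon replicate 2, with 0.89%), and 0 to 0 in the other comparisons.

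The 6 other pathway genes called in GCR against mock were 13 in DESeq2 (22.6% of all genes), 10 with the covariate (22.5%), 2 with only the groups compared (5.78%), and 0 without the muscle-rich, high-Rn45s or both sets, or with the covariate and without either set (2 to 16 with single libraries left out). The 16 came without GCR replicate 4, where 24.1% of all genes were called. The 7 in GCR against gamma were 11 in DESeq2 (12.1%), 3 in limma voom (1.13%), and 0 with only the groups compared, without the heart-rich libraries, without the muscle-rich, high-Rn45s or both sets, or with the covariate and without the muscle-rich or high-Rn45s set (0 to 13 with single libraries left out, with 0 without GCR replicate 1, 2, 5 or 6 or gamma replicate 3 or 4). The 13 came without gamma replicate 5, where 12.6% of all genes were called. For the fits with 0 in GCR against gamma, the share of all genes is not given here.

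Some signs changed, including those of Bmp6 in mock + NR against mock (-1.87 over all libraries), Tbx20 in GCR against gamma (-3.08) and Id3 in the NR difference (0.88). In silicon against mock the covariate gave 0.15 for Id1, 0.30 for Id2 and 0.19 for Id3. With the endothelial covariate, Bmp6, Eng and Id3 were at -0.053, -0.13 and -0.19 in silicon + NR against mock + NR, where Id3 was also at -0.014 with only the groups compared. Acvrl1 in GCR against mock was at 0.51 with the covariate, 0.29 with it and without the muscle-rich and 0.16 without the high-Rn45s libraries. Bmpr2 was at -0.076 and Id2 at -0.26 without the muscle-rich libraries, at -0.17 and -0.069 without both sets, Id2 at -0.15 with the covariate and without the muscle-rich, and Id3 at 0.11 with it and without the high-Rn45s libraries. In mock + NR against mock the covariate gave 0.023 for Bmp6 and 0.29 for Id2. Eng in gamma against mock was at -0.59 without the heart-rich, -0.16 without the muscle-rich and -0.15 without both the muscle-rich and high-Rn45s libraries. The NR difference for Id2 was 0.14 in limma voom and 0.37 without the lymphoid-rich libraries, and for Id3 -0.38 with the covariate. In limma voom GCR against gamma gave -0.25 for Acvrl1, -0.10 for Bmpr2 and 0.28 for Tbx20. Leaving out single libraries also changed the sign of Id2 in silicon against mock (-0.29 to 0.0089), of Eng in gamma against mock (-0.17 to 0.30), of Id2 in GCR against mock (-0.060 to 0.13), mock + NR against mock (-0.34 to 0.079) and the NR difference (-0.42 to 0.0055), and of Id3 in silicon + NR against mock + NR (-0.12 to 0.25). The cause of these changes was not tested, beyond the fewer libraries that an omission leaves. No paired analysis was possible because each mouse has its own ear tag and replicate numbers follow accession order. Size factors moved the median of all genes in GCR against mock by 0.02. Among the 10 genes, depth limits Bmp6 most, with 14 counts in 1 library.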
